A study of Rattus norvegicus with 12 samples.

Results

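Ctgf and 7 further genes tied to the transcriptional co-activator YAP were followed in ECs of the rat ductus arteriosus (DA) and aorta around birth. They were Ctgf (now Ccn2), Cyr61 (now Ccn1), Thbs1, Ankrd1, Amotl2, Lats2, Axl and Tead1, found by gene symbol among the probe sets of the array. Tead1 is a DNA-binding partner of YAP, and the others are widely used as YAP readouts. Each gene had 1 probe set, so they made up 8 of the 14503 genes with a named probe set, and 8 of the 26468 probe sets in all. The DA is the vessel through which fetal blood bypasses the lungs, from the pulmonary artery into the aorta. The experiment asked how the expression profile of its ECs differs from that of ECs of the aorta at each of both stages. ECs were sorted as CD31+/CD45- cells from pooled, enzyme-dispersed vessels of Wistar rats, and RNA was hybridized to Rat Gene 1.0 ST arrays. The DA N and aorta N groups were ECs of the DA and of the aorta from neonates 30 minutes after birth, once breathing had begun. The DA F and aorta F groups were ECs of the same vessels from term fetuses on day 21 of gestation, before breathing. The animals of all 4 groups were delivered by cesarean section. Each group had 3 arrays, 12 in all, each from a pool of many litters, so the error measures the spread between pools and not between animals.

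The deposited log2 signals had array medians of 5.63 to 5.76. The signal of the lys spike, a control transcript added to every sample, ranged from 3.41 to 6.17 between arrays with a mean of 4.44, and 18690 probe sets with a mean at or above it were tested. Of 12 endothelial markers, 11 had a probe set. All 11 were above the spike on every array, among them Pecam1 (CD31) at 11.9 to 12.28 and Cdh5 at 10.94 to 11.19. Of 6 leukocyte markers, Ptprc (CD45) was above the spike on 3 of 12 arrays, Lyz2 on 4, Csf1r and Tyrobp on 8 each, and Cd68 and Cd14 on all 12, at 7.57 to 8.48 and 5.71 to 6.98. Ptprc lay at 2.82 to 4.1. Such counts depend on the spike of each array, which varied, as well as on the marker. Cd14 fell in the DA over both stages, at a log2 fold change of -0.57 (adjusted p = 0.0224 by limma). Cd68 was at -0.31, while Csf1r was at 0.08 and Tyrobp at 0.01, and none of these was called. The mean of the 4 leukocyte markers tested was 5.85 to 5.97 in DA N against 5.92 to 6.18 in aorta N, and 5.69 to 6.0 in DA F against 6.09 to 6.11 in aorta F. Smooth muscle markers were measured as well. Acta2 lay between 10.26 and 11.36. The mean log2 signal of 10 smooth muscle markers was 7.56 to 7.86 in DA N against 7.14 to 7.17 in aorta N, and 7.44 to 7.6 in DA F against 7.07 to 7.15 in aorta F. Lmod1 was above the spike on 10 of 12 arrays, Des on 11 and the other smooth muscle markers on all 12. The mean of 7 fibroblast markers was 8.32 to 8.4 in DA N against 8.26 to 8.27 in aorta N. It was 8.22 to 8.38 in DA F against 8.17 to 8.34 in aorta F. Col1a2, 1 of the 7, lay at 10.81 to 11.29. Of 4 mesothelial markers 1 was called higher in F, Msln (0.67, adjusted p = 0.0137 by limma), against 1.49% of all probe sets, and 2 were below 0. In such bulk samples, fewer cells of a type and less RNA per cell cannot be told apart.

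YAP and its paralog TAZ (Wwtr1) enter the nucleus when cells are stretched, spread or grown on stiff matrix and switch on genes through the TEAD transcription factors, of which Tead1 is one. The Hippo kinases hold them back. The kinases of the MST family activate LATS kinases, including Lats2, which phosphorylate YAP and keep it in the cytoplasm. Amotl2 is an angiomotin-family scaffold that binds YAP at junctions, so both Lats2 and Amotl2 are targets that feed back on the pathway. Ctgf and Cyr61 are secreted CCN matricellular proteins, which bind integrins and heparan sulphate in the matrix, and Ctgf also follows TGF-beta. Thbs1 encodes thrombospondin, a matrix glycoprotein that can activate latent TGF-beta. Ankrd1 is a nuclear and sarcomeric ankyrin-repeat protein, and Axl is a receptor tyrosine kinase for Gas6. In the endothelium YAP and TAZ respond to shear stress and are needed for vessel sprouting.

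The promoters are shown because TEAD factors bind the letters GGAATG, written CATTCC on the other strand. RefSeq promoter entries were at hand for 5 of the 8 genes. They are the 250 bases before the annotated start, 5′ to 3′ on the strand of the gene, with matches on either strand in capitals. Ankrd1, Lats2 and Tead1 had no entry.
Ctgf, GRCr8 chr1:22624615-22624864, minus strand: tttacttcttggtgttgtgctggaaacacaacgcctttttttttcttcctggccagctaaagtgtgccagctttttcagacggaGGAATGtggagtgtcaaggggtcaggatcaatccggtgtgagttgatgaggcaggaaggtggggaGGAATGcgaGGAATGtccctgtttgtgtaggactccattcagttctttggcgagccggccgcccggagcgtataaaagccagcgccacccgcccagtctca
Cyr61, GRCr8 chr2:237225690-237225939, minus strand: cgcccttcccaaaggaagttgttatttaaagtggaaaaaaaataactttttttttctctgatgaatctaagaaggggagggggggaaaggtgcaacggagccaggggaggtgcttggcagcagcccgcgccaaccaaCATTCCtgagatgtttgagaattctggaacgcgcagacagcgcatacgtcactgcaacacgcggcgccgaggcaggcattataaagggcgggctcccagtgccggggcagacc
Thbs1, GRCr8 chr3:125510000-125510249, plus strand: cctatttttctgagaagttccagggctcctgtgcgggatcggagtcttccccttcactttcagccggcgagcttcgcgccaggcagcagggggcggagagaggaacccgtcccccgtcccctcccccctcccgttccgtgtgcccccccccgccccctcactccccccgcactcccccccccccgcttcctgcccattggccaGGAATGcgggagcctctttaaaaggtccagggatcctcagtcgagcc
Amotl2, GRCr8 chr8:112182376-112182625, plus strand: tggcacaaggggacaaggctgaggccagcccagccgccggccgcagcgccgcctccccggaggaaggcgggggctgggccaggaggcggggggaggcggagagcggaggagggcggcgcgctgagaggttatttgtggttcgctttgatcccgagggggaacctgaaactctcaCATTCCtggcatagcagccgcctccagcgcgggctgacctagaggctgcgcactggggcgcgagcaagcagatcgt
Ctgf held 3 matches, 166, 101 and 92 bases before the start. Cyr61, Thbs1 and Amotl2 held 1 match each, 113, 47 and 76 bases before the start, as CATTCC in Cyr61 and Amotl2. Axl held none. Of 33469 rat promoters, 12.1% had at least 1 match in these 250 bases and 0.902% had 2 or more. With the 50 bases after the start included, the counts in the 5 genes were the same and the shares were 14.2% and 1.24%. The AP-1 letters TGANTCA, which read the same way on both strands, occurred in none of the 5 promoters and in 6.34% of all. A match describes letters and not a bound site.

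Of the 8 genes, Ctgf alone was called between the vessels by limma. Its log2 signal was 9.02, 9.01 and 8.67 in DA N, against 8.73, 8.42 and 8.43 in aorta N. In the F group it was 9.82, 9.63 and 9.82 in DA F, against 8.80, 8.71 and 8.37 in aorta F. The group means were 8.90 ± 0.20 in DA N, 8.53 ± 0.18 in aorta N, 9.76 ± 0.11 in DA F and 8.62 ± 0.23 in aorta F (SD, n = 3 each). The 3 DA F arrays stood above the other 9, and the other 3 groups, in the order DA N, aorta F and aorta N, overlapped with each other. Ctgf rose 2.19-fold in ECs of the DA over ECs of the aorta in F, a log2 fold change of 1.13 (SE 0.15, adjusted p = 0.00086 by limma with Benjamini-Hochberg adjustment, n = 3 arrays each). Same-numbered arrays differed by 1.02, 0.93 and 1.45. In N the log2 fold change was 0.37 (SE 0.15, adjusted p = 0.362), and over both stages it was 0.75 (SE 0.11, adjusted p = 0.00063). The call in F held without each array in turn, at 1.01 to 1.22, and ended with the methods' t-test once Benjamini-Hochberg adjusted (adjusted p = 0.0933, where the settings tried ranged from 5.42e-05).

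Across birth, the Ctgf values of the DA were lower in N, past the threshold in the blocked fit, and its aorta groups overlapped. The log2 fold change of DA N over DA F was -0.86 (SE 0.15, 0.551-fold, adjusted p = 0.443 by limma), with no overlap between the groups. The share of all probe sets with no overlap between groups was not counted. For every gene here, a lack of overlap therefore only describes the arrays. Same-numbered arrays differed by -0.81, -0.62 and -1.15. A fit with the replicate number as a term, or block, which takes account of the pairing of arrays by number, called it lower (adjusted p = 0.0239). In the aorta the log2 fold change of N over F was -0.10 (SE 0.15, adjusted p = 1.0). The interaction of vessel and stage, the vessel contrast in N minus that in F, was -0.76 (SE 0.22, adjusted p = 1.0 by limma and 0.999 with the block), so the larger vessel contrast in F than in N did not pass its own test. Without adjustment its p was 0.00399 by limma and 0.000564 with the block. Of all probe sets, 0.0% were called for the interaction by either fit. Of the 3 erythroid genes tested, Hbb and Alas2 were at lower values in DA N than in DA F, and Slc4a1 hardly differed. Hbb, a globin gene, averaged 7.18 in DA N and 8.71 in DA F, against 8.35 in aorta N and 8.44 in aorta F. Its log2 fold change in the DA was -1.54 (adjusted p = 0.896 by limma). Alas2 was at -0.55 (adjusted p = 0.732 by limma) and Slc4a1 at -0.05. Alas2 was above the spike on 8 of 12 arrays and Slc4a1 on 7. The 3 erythroid genes tested averaged 5.4 to 5.48 in DA N and 5.95 to 6.49 in DA F, and their part in the stage values was not tested. The mean of the smooth muscle markers was higher for the DA at both stages. That of the leukocyte markers was lower for the DA in F, without overlap, although Csf1r was at 0.13 there. The part of smooth muscle, leukocyte, fibroblast or mesothelial signal in the Ctgf values was not tested.

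**Figure D1:**
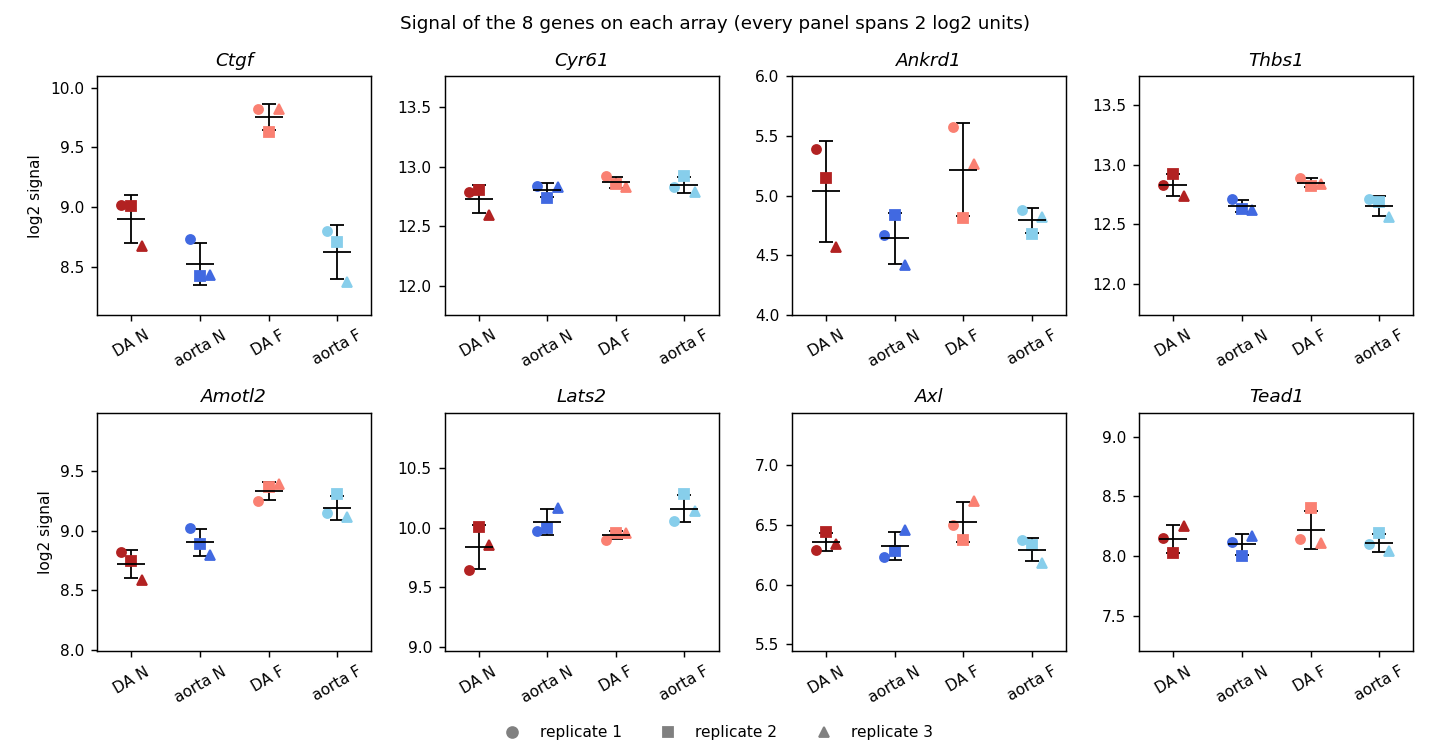
Log2 signal (vertical axis, each panel spanning 2 log2 units around its own gene) of the 8 genes on the 12 arrays, by group along the horizontal axis. Symbols are replicates and black bars are mean ± SD of 3 arrays. The 3 DA F arrays of Ctgf, at 9.63 to 9.82, sit above all others, and Amotl2 is lower in both N groups than in both F groups.

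Cyr61, the CCN relative of Ctgf, was not called in any contrast. Its log2 signal was 12.79, 12.80 and 12.59 in DA N, 12.84, 12.74 and 12.83 in aorta N, 12.92, 12.85 and 12.83 in DA F, and 12.83, 12.92 and 12.79 in aorta F. The 2 vessels overlapped at each stage. The log2 fold change of the DA over the aorta was -0.08 (SE 0.11, adjusted p = 0.988) in N and 0.02 (SE 0.11, adjusted p = 0.974) in F. In the DA the N arrays lay below the F arrays without overlap, by -0.14 (SE 0.11, adjusted p = 1.0 by limma), and in the aorta N and F overlapped.

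Thbs1 had slightly higher values in the DA at both stages. Its log2 signal was 12.83, 12.92 and 12.74 in DA N against 12.71, 12.63 and 12.62 in aorta N. It was 12.89, 12.82 and 12.84 in DA F against 12.71, 12.69 and 12.56 in aorta F. The DA arrays were above the aorta arrays without overlap at each stage. The log2 fold change was 0.18 (SE 0.10, adjusted p = 0.673) in N and 0.19 (SE 0.10, adjusted p = 0.499) in F, and 0.18 (SE 0.07, adjusted p = 0.184) over both stages, so Thbs1 did not pass the test. The block gave adjusted p = 0.054 and the fit with a trended, robust variance 0.0495. Between the stages Thbs1 differed by -0.02 in the DA and by 0.00 in the aorta.

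Ankrd1 was measured close to the lys spike, and below it on 3 of 12 arrays. Its log2 signal was 5.39, 5.15 and 4.57 in DA N against 4.67, 4.84 and 4.42 in aorta N. It was 5.58, 4.81 and 5.27 in DA F against 4.88, 4.68 and 4.82 in aorta F. The replicate 1 arrays of DA N, aorta N and DA F were below their own spike, which was highest on replicate 1 in each group. All 6 same-numbered differences between the vessels were above 0, from 0.13 to 0.72, while the groups overlapped. The log2 fold change over both stages was 0.41 (SE 0.16, adjusted p = 0.169 by limma), past the threshold with the block (adjusted p = 0.0496) and without DA N replicate 3 (0.53, adjusted p = 0.0419). The value of N over F was -0.18 for the DA and -0.15 for the aorta (SE 0.22 each).

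For Amotl2 the arrays of N and F were apart in both vessels, without passing the test. Its log2 signal was 8.82, 8.75 and 8.59 in DA N against 9.25, 9.37 and 9.39 in DA F. In the aorta it was 9.02, 8.89 and 8.80 in aorta N against 9.15, 9.31 and 9.12 in aorta F. All 6 N arrays lay below all 6 F arrays. The log2 fold change of N over F was -0.62 (SE 0.12, 0.65-fold, adjusted p = 0.443 by limma) in the DA and -0.29 (SE 0.12, 0.817-fold, adjusted p = 1.0) in the aorta, and neither passed the test. With the block, the DA had an adjusted p of 0.0663 and the aorta one of 0.905. Between the vessels, the DA was at -0.18 (SE 0.12, adjusted p = 0.748) in N and at 0.15 (SE 0.12, adjusted p = 0.718) in F. The same-numbered differences were -0.20, -0.14 and -0.20 in N and 0.10, 0.06 and 0.28 in F. The interaction was -0.33 (SE 0.16, adjusted p = 1.0), so the opposite signs did not pass the test of their difference.

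Lats2, the other feedback gene, had its lower values in the DA. Its log2 signal was 9.65, 10.01 and 9.86 in DA N against 9.97, 10.00 and 10.17 in aorta N. It was 9.90, 9.96 and 9.96 in DA F against 10.06, 10.28 and 10.14 in aorta F. The F groups did not overlap and the N groups did. The log2 fold change was -0.21 (SE 0.12, adjusted p = 0.669) in N, -0.22 (SE 0.12, adjusted p = 0.541) in F and -0.21 (SE 0.09, adjusted p = 0.198 by limma) over both stages. With the block, the last value passed the threshold (adjusted p = 0.0496). Between the stages it was -0.11 in each vessel (SE 0.12).

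Axl and Tead1 did not pass the test in any contrast. Axl had 6.29, 6.44 and 6.34 in DA N against 6.23, 6.28 and 6.46 in aorta N, and 6.50, 6.37 and 6.70 in DA F against 6.37, 6.33 and 6.18 in aorta F. Between the vessels it was at 0.03 (SE 0.12, adjusted p = 0.999) in N and 0.23 (SE 0.12, adjusted p = 0.485) in F. Tead1 averaged 8.14 ± 0.12 in DA N and 8.10 ± 0.09 in aorta N, and 8.22 ± 0.16 in DA F and 8.11 ± 0.08 in aorta F (SD, n = 3 each). Between the vessels it was at 0.04 in N and 0.11 in F (SE 0.12 each, adjusted p = 0.999 and 0.834).

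**Figure D2:**
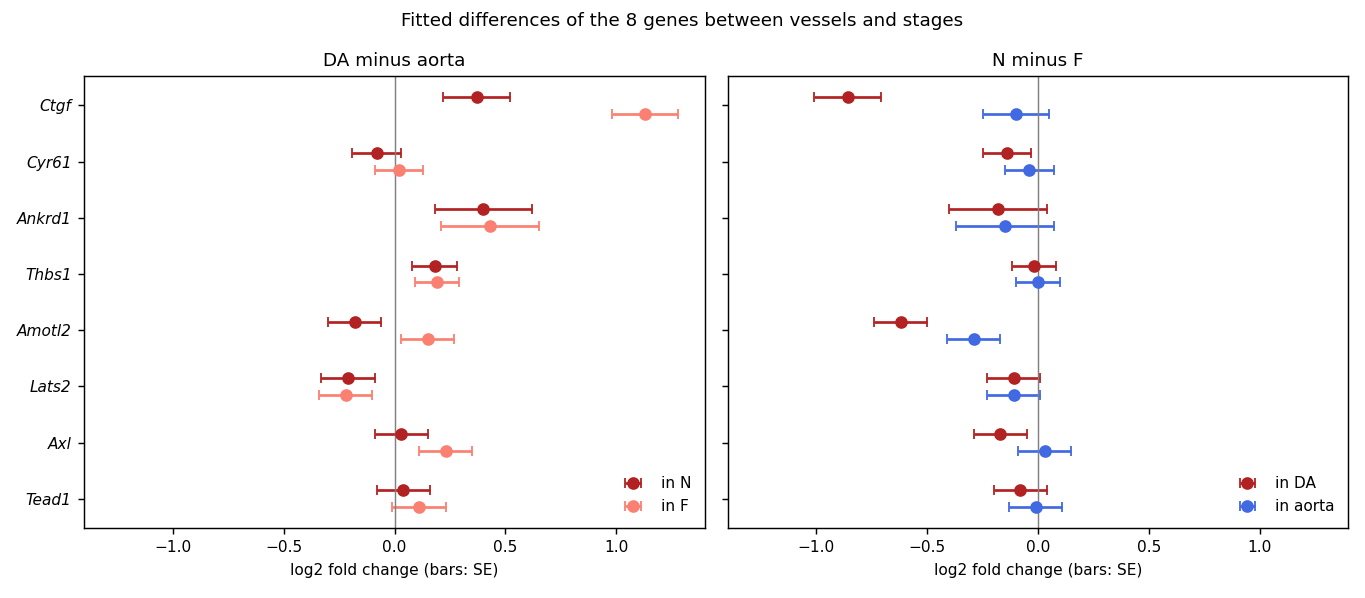
Log2 fold changes (horizontal axis, points, with bars of 1 SE) of the 8 genes from the limma fit, the DA minus the aorta on the left and N minus F on the right. Ctgf in F, at 1.13, is the farthest from 0 on the left, and Ctgf at -0.86 and Amotl2 at -0.62 in the DA are the farthest on the right.

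Counted together, few of the 8 genes passed the test. Between the vessels in N, 0 of 8 were called by limma, and 0 with the block or the methods' t-test. Without adjustment 1 of 8 had p under 0.05 in N, against 10.6% of all probe sets. At the adjusted threshold 3.14% of all probe sets were called there, 1.26% higher and 1.87% lower in the DA, and 7.27% with the block. In F, 1 of 8 was called, Ctgf, against 3.77% of all probe sets, 1.49% higher and 2.28% lower, and 10.4% with the block. At an unadjusted p under 0.05 there was 1 of 8 in F, against 13.2% of all. Over both stages 1 of 8 was called, against 8.12%, 3.19% higher and 4.93% lower, and 4 of 8 had an unadjusted p under 0.05, against 18.2%. With the block 3 of 8 were called over both stages, Ctgf and Ankrd1 higher and Lats2 lower, against 17.8% of all. For N over F in the DA, 0 of 8 were called by limma, against 0.00535% of all probe sets. At an unadjusted p under 0.05 there were 2 of 8, Ctgf and Amotl2, against 2.01% of all. With the block 1 of 8 was called, against 0.0535% of all. In the aorta and for the interaction, 0 of 8 were called by limma, against 0.0% of all probe sets in each. With the block 0 of 8 were called in either, against 0.0161% of all in the aorta and 0.0% for the interaction. At an unadjusted p under 0.05 there was 1 of 8 in each, Amotl2 in the aorta against 1.38% and Ctgf for the interaction against 0.931%. The median log2 fold change of the 8 genes between the vessels was 0.04 in N and 0.17 in F, beside 0.00 for all probe sets. Between N and F all 8 were below 0 in the DA, with a median of -0.16, where 44.6% of all probe sets were below 0 and their median was 0.02. In the aorta 7 of 8 were below 0, Thbs1 among them at 0.00 after rounding, with a median of -0.07, where 49.7% of all probe sets were below 0 and their median was 0.00.

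The genes did not follow one pattern over the 12 arrays, which share groups and pools. Ctgf correlated with Thbs1 at r = 0.81, with Ankrd1 at 0.70, with Axl at 0.69, with Amotl2 at 0.58 and with Cyr61 at 0.40. Amotl2 correlated with Cyr61 at 0.73 and with Thbs1 at 0.12. Lats2 was at -0.56 with both Thbs1 and Ankrd1. These values are descriptions over arrays.

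The probe sets most like Ctgf, by Pearson correlation over the 12 arrays among 11898 tested probe sets with 1 gene symbol, were those of Cdc20, an activator of the anaphase-promoting complex (r = 0.949), Tspan17, a tetraspanin (0.935), Rarres2, which encodes chemerin (0.926), Spr, sepiapterin reductase (0.92), and Hist1h2af, a histone H2A gene (0.918). Cdc20 averaged 8.69 in DA N and 8.30 in aorta N, and 9.18 in DA F and 8.59 in aorta F. Like Ctgf, it was highest in DA F, which follows from its choice by likeness over these arrays. Those most like Amotl2 were Ajuba, a LIM protein that inhibits LATS kinases (0.936), Adam1a, a metalloprotease-family gene (0.892), Sele, the endothelial adhesion molecule E-selectin (0.863), Myc (0.839) and Micb (0.818). Ajuba was 8.71, 8.82 and 8.61 in DA N against 9.03, 9.15 and 9.29 in DA F, and 8.77, 8.77 and 8.79 in aorta N against 9.00, 9.16 and 9.09 in aorta F. Its 6 N arrays lay below its 6 F arrays, as those of Amotl2 did. Ajuba was picked for its likeness over the same arrays, so this is no separate evidence. Its log2 fold change of N over F was -0.44 (SE 0.11) in the DA and -0.31 (SE 0.11) in the aorta, and neither passed the test (adjusted p = 1.0 each by limma). Sele was at -0.75 (SE 0.19) in the DA and -0.48 (SE 0.19) in the aorta, with adjusted p = 1.0 each.

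**Figure D3:**
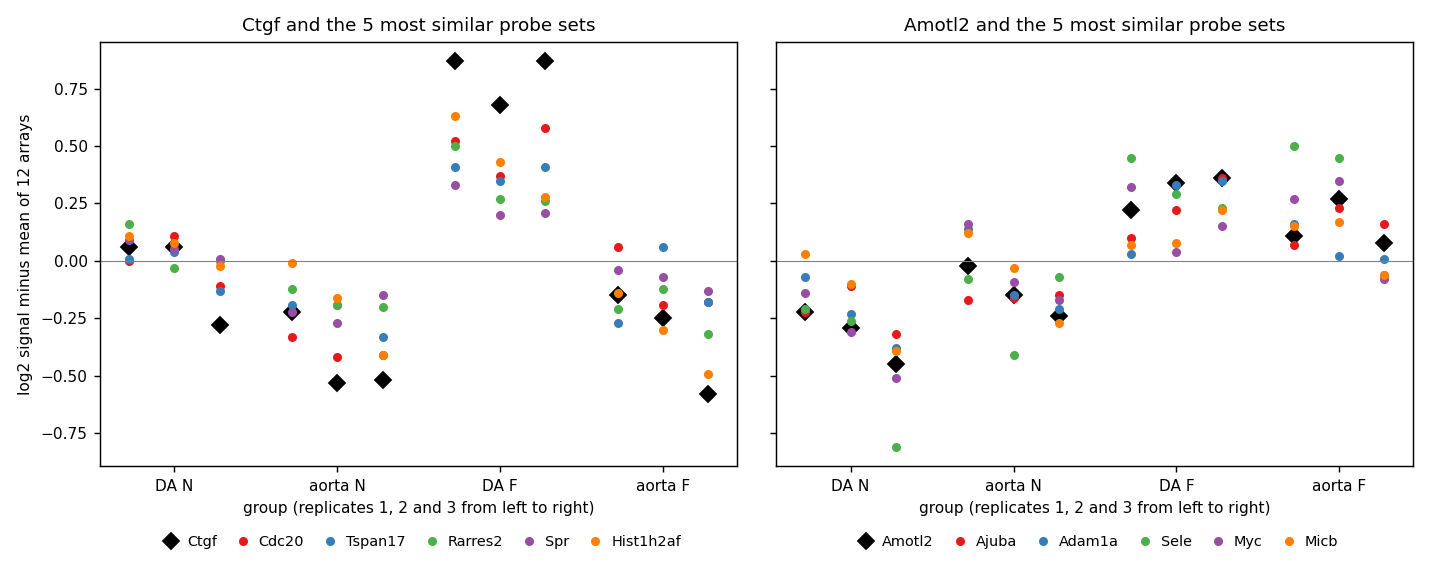
Log2 signal minus the mean of 12 arrays (vertical axis) of Ctgf and of Amotl2, as black diamonds, with the 5 probe sets most like each as coloured points, by group and replicate along the horizontal axis. The Ctgf diamonds are highest in DA F, and those of Amotl2 are below 0 on the 6 N arrays and above 0 on the 6 F arrays.

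Of the factors that carry the signal into the nucleus, 6 of 9 listed were tested. Between the vessels over both stages 1 was called, against 8.12% of all probe sets. Yap1 averaged 8.76 in DA N and 8.82 in aorta N, and 8.72 in DA F and 8.96 in aorta F, with a log2 fold change of -0.15 over both stages (adjusted p = 0.602). Wwtr1, encoding TAZ, was at 0.03 (adjusted p = 0.931), Tead2 at 0.31 (adjusted p = 0.138) and Tead3 at 0.14 (adjusted p = 0.607). Tead3 was above the spike on 9 of 12 arrays, and Tead4 was not analysed here. Vgll4, a cofactor that competes with YAP for TEAD, rose in the DA at 0.34 over both stages (SE 0.08, adjusted p = 0.0163). It was at 0.42 in N (adjusted p = 0.0685, and 0.0191 with the block) and 0.26 in F (adjusted p = 0.317). Without DA N replicate 2 none of the 6 was called, and without DA N replicate 1 there were 2.

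Of 23 Hippo kinases and adaptors, 18 were tested. In each of N, F and over both stages 1 fell in the DA, against 1.87%, 2.28% and 4.93% of all probe sets. It was Fat1, an atypical cadherin upstream of the kinases, at -0.61 in N, -0.55 in F and -0.58 over both stages (adjusted p = 0.000266). The median of the 18 was -0.10 over both stages, with 14 below 0, beside 50.1% of all probe sets. With the block 4 fell over both stages, Fat1, Taok1 (-0.31, adjusted p = 0.0171), Wwc2 (-0.31, adjusted p = 0.0197) and Sav1 (-0.25, adjusted p = 0.0307), and 3 fell in F. Of all probe sets, 17.8% were called with the block over both stages and 10.4% in F, in either direction. Without DA N replicate 2 the count of Hippo genes called by limma over both stages was 2.

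Among 25 other YAP and TAZ targets, 17 were tested, and they moved both ways. Over both stages 3 rose and 1 fell, with a median of 0.01, and with the block 8 were called, 5 of them higher. Of all probe sets, 3.19% were called higher and 4.93% lower by limma, and 17.8% were called with the block. Tgfb2, a TGF-beta ligand, was highest, at 1.12 in N and 1.32 in F (1.22 over both stages, SE 0.09, adjusted p = 2.94e-06). Gli2, a Hedgehog transcription factor, was at 1.08 in N and 1.19 in F, and Nuak2, an AMPK-related kinase, at 0.47 in N (adjusted p = 0.0701, and 0.0251 with the block) and 0.57 in F. Igfbp3, an IGF-binding protein, fell, at -0.74 in N and -0.75 in F (adjusted p = 0.000341 over both stages). Of 7 further CCN and thrombospondin genes 3 were tested, and Ccn4, a matricellular relative of Ctgf, fell at -0.38 over both stages (adjusted p = 0.00971). Of Gas6, Pros1, Tyro3 and Mertk, the ligands and kin of Axl, 0 of 4 were called over both stages by limma or with the block. Their values were -0.19 to 0.14.

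Genes of pathways that share targets with YAP moved differently from list to list. Over both stages limma called 3.19% of all probe sets higher and 4.93% lower in the DA, and 50.1% were below 0. With the block 17.8% were called, in either direction. Of 12 TGF-beta responsive genes tested, 9 were below 0 over both stages, with a median of -0.17. There 2 rose, the ligand genes Tgfb2, also counted among the targets above, and Tgfb3 (0.64, adjusted p = 0.0443). Another 2 fell, Col1a1 (-0.48, adjusted p = 0.00453) and Ltbp2 (-0.48, adjusted p = 0.0238). Of 12 MRTF and SRF targets, the actin-regulated set, 2 rose, the LIM protein gene Fhl2 (0.84, adjusted p = 4.11e-05) and Tpm1 (0.73, adjusted p = 0.000768), and 2 fell, Fhl1 (-0.39, adjusted p = 0.0102) and Tes (-0.49, adjusted p = 0.029). Of 18 immediate early genes, which respond rapidly to stress and growth factors, 0 rose and 6 fell in the DA over both stages, with all 18 below 0 and a median of -0.27, and with the block 11 fell. They included Nr4a1 at -0.29 in N (adjusted p = 0.537) and -0.76 in F (adjusted p = 0.00748), and Maff at -0.62 over both stages (adjusted p = 0.00433). Of 9 flow-responsive endothelial genes 1 fell over both stages, the thrombomodulin gene Thbd, at -0.70 in N and -0.80 in F, and 2 were called with the block. Of 11 endothelial markers 0 rose and 2 fell over both stages, Flt1 (-0.55, adjusted p = 0.000815) and Cldn5 (-0.62, adjusted p = 0.00209). Of 10 smooth muscle markers 5 rose, led by Actg2 at 1.57 in N and 1.46 in F. The 1 that fell was Myocd, at -0.59 over both stages (adjusted p = 0.00477 by limma). In no list was a gene called between N and F by limma in either vessel.

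**Figure D4:**
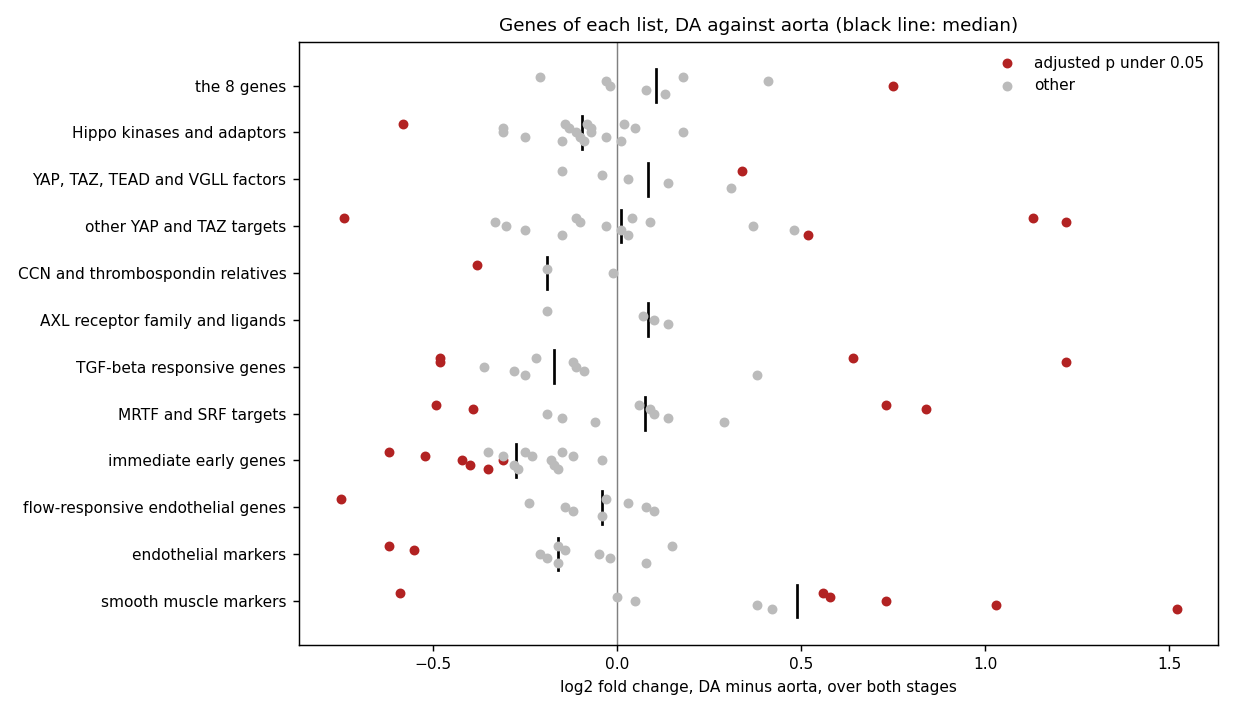
Log2 fold change of the DA minus the aorta over both stages (horizontal axis) of each gene tested, by list. Red points have an adjusted p under 0.05 and black lines are medians. Ctgf at 0.75 is the red point among the 8 genes, and the medians run from -0.27 for immediate early genes to 0.49 for smooth muscle markers.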

How the data were processed

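Probe sets held log2 signals that the authors had summarised and normalized before deposition. How they did so was not given in the sources used here. Of the 26468 deposited probe sets, 15307 carried 1 gene symbol, 323 several and 10838 none, from the platform table updated through RefSeq, in which 15276 of the single symbols matched by gene ID. Probe sets whose mean over the 12 arrays reached the mean of the lys spike were tested, which left out 7778 and kept 18690. A mean for each of the 4 groups was fitted to all arrays at once in limma (version 3.58.1, R 4.3.3), contrasts were tested two-sided, and p-values were adjusted by Benjamini-Hochberg over all probe sets tested. A call needed an adjusted p under 0.05. With so few arrays their number limits the precision. The fit without the block was tested on simulated data in which arrays varied independently. The arrays here did not, as given next, so that test does not cover this feature.

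Deviations of arrays from their group means correlated at 0.539 to 0.82 for the same replicate number 1, 0.102 to 0.301 for number 2 and 0.393 to 0.735 for number 3, against -0.738 to 0.368 for different numbers, so the block was added in a further fit. The meaning of these numbers was not stated in the labels.

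The 8 genes and the lists were chosen with earlier results of these data known. Named besides the 8 genes were up to 6 called genes of each list with the smallest adjusted p, Yap1, Wwtr1 and the TEAD genes, and the 5 probe sets most like Ctgf and most like Amotl2. Genes named for a call under the block, Hbb, Alas2, Slc4a1, Nuak2 and the marker genes shown as a check of the sort were chosen after their values were seen. Alternatives were the filter, quantile normalization, median centring, the block, the 2 groups alone, a trended and robust variance, the methods' t-test (also at a fold of at least 2) and leaving out each array. Promoters were RefSeq sequences of the GRCr8 build.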

Additional observations from a re-analysis of the deposited data

How the results depend on the processing

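The count of the 8 genes called between the vessels in F, 1, was 0 with the methods' t-test once Benjamini-Hochberg adjusted. Over both stages the count of 1 became 3 with the replicate block and 2 with the trended, robust variance, and without each array in turn it was 1 to 2, with 2 without DA N replicate 3 (Ankrd1). Between N and F in the DA the count of 0 became 1 with the block. The block changed no other call of the 8 genes. Other filters, quantile normalization and median centring changed none of these counts. Fits of 2 groups changed none of those in N, in F or between N and F in either vessel, and were not made over both stages or for the interaction. For the lists, 1 Hippo gene called in N and in F became 0 in fits of 2 groups or with the t-test, and 1 over both stages became 2 with the trended, robust variance. The 3 other targets called in N became 5 with the block and 1 with the t-test, and the 4 in F became 0 with it (2 at a fold of at least 2 before adjustment). For the TEAD and VGLL factors, 0 in N became 1 with quantile normalization, the block or the trended variance. Apart from limma as used above and the block, the share of all probe sets called was not counted for any setting. Counts under the other settings, such as the t-test and the trended variance, therefore have no background beside them. The cause of these changes was not tested.

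Signs turned only for values that were smaller in size than their SE and were never called, the largest being Ankrd1 between N and F in the DA, at -0.18 (SE 0.22). Over the arrays left out in turn, Cyr61 between the vessels ran from -0.0043 to 0.06 in F and from -0.05 to 0.00476 over both stages. Amotl2 over both stages ran from -0.04 to 0.02. Axl and Tead1 in N each ran from -0.01 to 0.10. Between N and F in the DA, Ankrd1 ran from -0.39 to 0.05, Thbs1 from -0.06 to 0.03 and Tead1 from -0.13 to 0.02. In the aorta Thbs1 ran from -0.05 to 0.03, Axl from -0.04 to 0.08 and Tead1 from -0.05 to 0.04. For the interaction of vessel and stage, Ankrd1 ran from -0.23 to 0.20, Thbs1 from -0.06 to 0.03, Lats2 from -0.08 to 0.10 and Tead1 from -0.12 to 0.03. Quantile normalization gave 0.02 for Ankrd1 and -0.06 for Lats2 in that interaction, 0.03 for Thbs1 between N and F in the aorta and 0.02 for Amotl2 between the vessels over both stages. Median centring gave 0.000735 for Ankrd1 and 0.02 for Thbs1 in that interaction. Another probe set could not be tried, since each of the 8 genes had 1. Ankrd1 was below the spike on 3 of 12 arrays, so its values there have no measured signal above that control.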
